A study of Mus musculus with 4 samples.

Results

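The Myc and Max network is a set of transcription factors that share a basic helix-loop-helix leucine zipper, and 10 of its genes were read here in splenic Treg cells from Setd2 KO and CTRL mice. They were found by symbol (Myc, Mycn, Mycl, Max, Mxd1, Mxd3, Mxd4, Mxi1, Mnt and Mlx), and all 10 were among the 24087 genes of the deposited table. Values were FPKM (fragments per kilobase of gene length, scaled to the library's total), and wherever 2 values are given for a genotype, library 1 comes first. Of the 10, 8 reached 1 FPKM in 2 or more libraries and were tested, as were 11399 genes in all. Mycn and Mycl were below this filter.

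RNA-seq was performed on Treg cells sorted as CD3+CD4+YFP+ from the spleen of C57BL/6 mice at steady state. KO cells came from Foxp3Cre-YFPSetd2f/f mice, in which both alleles of Setd2, the H3K36 methyltransferase gene, are floxed. CTRL cells came from Foxp3Cre-YFPSetd2f/+ littermates, which carry the same Cre and 1 floxed allele. Each genotype had 2 libraries, and each library held about 1000000 cells pooled from 2 mice per the labels (2 to 3 in the study's methods). Cre and YFP are driven from the Foxp3 locus, so recombination is directed to Foxp3-expressing cells, and CTRL Treg cells can lose an allele of Setd2 as well. The labels give no age or sex for these mice, and the study's methods give an age range and both sexes for its mice in general.

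MYC binds DNA only as a heterodimer with MAX, at E-box sequences, and activates genes for ribosome production, metabolism and cell cycle entry. The MXD proteins (MXD1, MXD3, MXD4 and the product of Mxi1) and MNT also pair with MAX, occupy the same sites and recruit SIN3 and histone deacetylases, so they oppose MYC. MLX forms a parallel branch, pairing with some of these repressors and with the nutrient sensors MondoA (Mlxip) and ChREBP (Mlxipl). In T cells, MYC is induced by antigen receptor and cytokine signals and drives the growth that precedes division.

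The promoters of the members are shown first because MYC and MAX recognise the E-box CACGTG, which several network genes carry themselves. RefSeq promoters (build GRCm38.p6, 250 bases before to 50 after each start) were available for 9 members, all but Myc. Searched on both strands, on which it reads the same, CACGTG was found in 4 of these 9 genes and in 8.09% of all 27025 genes with such a promoter. The matches, printed on the strand of the gene with 12 bases on each side and the E-box in capitals, were in Max, Mxd4, Mnt and Mlx, and none of these 4 genes passed the threshold between genotypes (below).
Max, chr12:76962234-76962263, minus strand: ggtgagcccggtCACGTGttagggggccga
Mxd4, chr5:34187912-34187941, minus strand: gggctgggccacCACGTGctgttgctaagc
Mnt, chr11:74830789-74830818, plus strand: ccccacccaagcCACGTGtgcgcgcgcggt
Mlx, chr11:101087238-101087267, plus strand: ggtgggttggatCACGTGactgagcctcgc

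Neither member that rose in KO, Mxd3 or Mxd1, had CACGTG in this window. Their 250 bases before the start are given because they are the promoters of the genes that moved. Both were rich in G and C, with 73.2% in Mxd3 and 78.4% in Mxd1. Sites of the kind that E2F factors bind were searched as TTCCCGC and TTTGGCGC on both strands, motifs chosen after the values were seen. TTCCCGC matched in Mxd3 alone among the 9 members (5.29% of all genes), where it lies on the opposite strand and is in capitals, and TTTGGCGC matched at 2 places in Mycn alone (0.585% of all genes).
Mxd3, chr13:55329732-55329981, minus strand: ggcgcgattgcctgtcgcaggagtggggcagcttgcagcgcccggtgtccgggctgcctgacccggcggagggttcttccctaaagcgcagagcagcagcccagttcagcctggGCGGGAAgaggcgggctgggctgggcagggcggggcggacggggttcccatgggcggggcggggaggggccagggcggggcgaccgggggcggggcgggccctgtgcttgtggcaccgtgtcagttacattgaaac
Mxd1, chr6:86669160-86669409, minus strand: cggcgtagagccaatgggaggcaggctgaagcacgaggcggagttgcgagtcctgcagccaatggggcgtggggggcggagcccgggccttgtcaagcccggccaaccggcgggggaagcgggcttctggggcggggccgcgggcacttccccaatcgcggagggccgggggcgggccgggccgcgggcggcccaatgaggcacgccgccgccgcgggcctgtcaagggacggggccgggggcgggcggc

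The genotype and the cells were examined next. Setd2 measured 23.4 and 25.3 in CTRL against 21.3 and 19.5 FPKM in KO (log2 fold change -0.24, limma adjusted p = 0.097), over the whole gene and not the floxed exons alone. The reads behind the FPKM numbered at least 29775878 to 32505677 per library, and 15913 to 19100 genes were above 0, with the highest number in CTRL 1. Treg and T cell markers were abundant in every library, with a median over 7 T cell genes of 306 to 339 FPKM. The median over 10 Treg genes was 122 and 144 FPKM in CTRL and 104 and 118 FPKM in KO, without overlap. Their summed FPKM went the other way, also without overlap, at 1879 and 1974 in CTRL and 2064 and 2003 in KO. The median of their log2 fold changes was 0.069, and 6 of the 10 were above 0. Of these 10, Gpr83 fell by 0.93 on the log2 scale, Nrp1 and Tnfrsf4 rose by 0.41 and 0.31, and 7 did not pass. Over all genes tested, 9.75% passed in either direction. The Treg list thus differed in part between genotypes, with no shared direction. Summed over 12 myeloid markers, FPKM was 224.5 and 136.4 in CTRL and 289.4 and 109.7 in KO. Over 13 B and plasma cell markers it was 67.58 and 37.83 in CTRL and 90.82 and 42.1 in KO. Both sums were thus higher in the first library of each genotype and overlapped between genotypes. Over 8 CD8 T and NK cell markers the sum lay between 18.64 and 20.02, over 8 erythroid and platelet markers between 7.699 and 25.24, and over 7 stromal and endothelial markers between 73.87 and 103.1. Of the stromal and endothelial markers 5 of 7, Col1a1 and Cdh5 among them, were below 1 FPKM in all libraries, while Pecam1 lay between 48.52 and 57.5 FPKM and Vcam1 between 20.11 and 44.79 FPKM. Of the erythroid and platelet markers 3 of 8, Klf1 among them, were below 1 FPKM, while the haemoglobin gene Hba-a1 lay between 1.704 and 18.44 FPKM and was higher in the first library of each genotype. None of the markers of other cells passed the threshold between genotypes.

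To ask how the network differed between genotypes, KO was compared with CTRL. Myc fell, Mxd3 and Mxd1 rose, and Max, Mnt, Mxi1, Mxd4 and Mlx did not pass the threshold. Of the 8 members tested, 3 passed an adjusted p under 0.05 (limma on log2(FPKM + 1), two-sided, Benjamini-Hochberg over all genes tested), compared with 9.75% of all genes tested. Higher in KO were 2 members (5.10% of all genes) and lower was 1 (4.65% of all genes). In 6 of the 8 tested members the genotypes did not overlap, as in 64.5% of all genes. With every gene above 0 included in the test, or with any 1 of the 4 libraries left out, 0 members passed. With every gene above 0 included, Mycn and Mycl were tested as well. In that fit 0 genes passed over the whole table. There 4 of the 10 members had an unadjusted p under 0.05 (limma), compared with 22.4% of all genes. With a library left out, hardly any gene of the whole table passed.

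**Figure D1:**
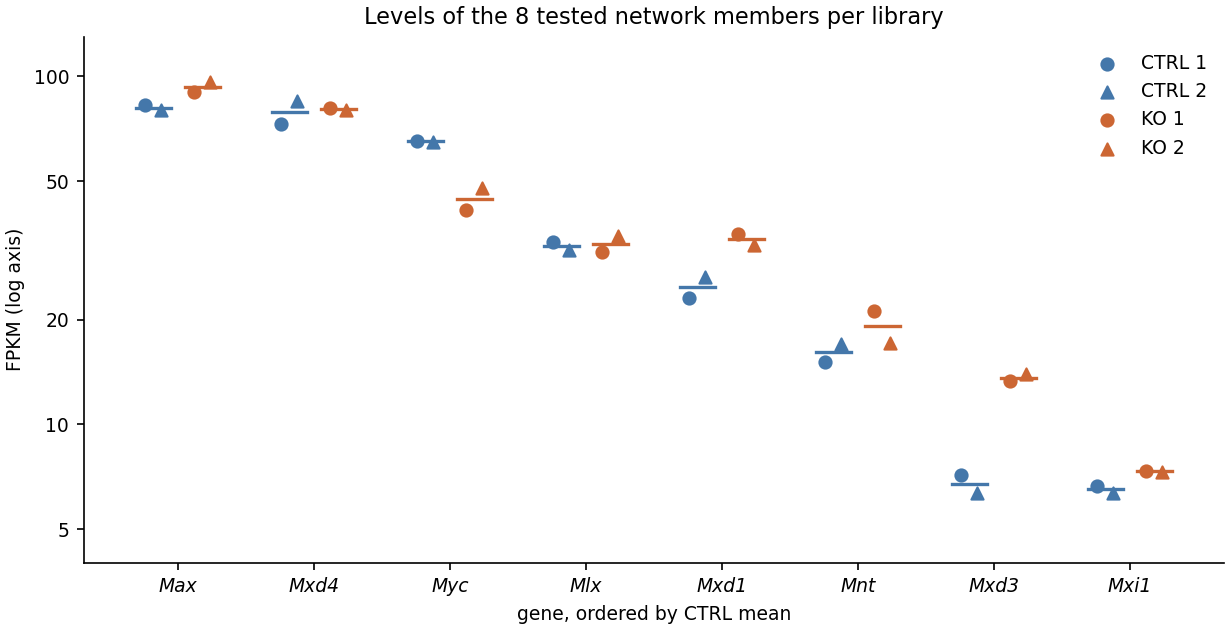
FPKM (log axis) of the 8 tested members in each library, ordered by the CTRL mean; circles are replicate 1, triangles replicate 2, and bars are means of 2 libraries. Myc sits at 64.9 to 65.4 FPKM in CTRL and at 41.3 to 47.6 FPKM in KO, Mxd3 at 6.36 to 7.13 and 13.3 to 13.9 FPKM.

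Myc, the founding activator of the network (ENSMUSG00000022346, chromosome 15, 61985391 to 61990374, GRCm38), measured 65.4 and 64.9 in CTRL against 41.3 and 47.6 FPKM in KO. The CTRL libraries lay close together, and both KO libraries were well below them. The mean fell from 65.1 ± 0.336 to 44.5 ± 4.5 FPKM (SD, n = 2 libraries per genotype), a ratio of 0.683. The log2 fold change was -0.54 (standard error 0.082, adjusted p = 0.0355, limma). At least 5145 and 5393 reads in CTRL and 3497 and 4053 reads in KO stood behind these values, and no other annotated exon overlapped those of Myc. The size of the difference depended on the KO library, since it was -0.44 without KO 1 and -0.65 without KO 2, and with any 1 library left out the adjusted p was 0.0888 to 0.141. In a bulk library, fewer cells that express a gene and less RNA of that gene per cell cannot be told apart.

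The paralogs of Myc were close to absent. Mycl measured 0.183 and 0.148 in CTRL against 0.146 and 0.0967 FPKM in KO, from 4 to 7 recovered reads per library. Mycn measured 0.047 FPKM in CTRL 1, had a listed value of 0 in CTRL 2 and measured 0.0655 and 0.13 FPKM in KO, from at most 6 recovered reads. A count of 0 allows up to 3 reads, so the genotypes could not be compared for Mycn at this depth. Neither paralog reached the filter of the main test.

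Max, the shared partner of every MYC, MXD and MNT protein (chromosome 12, 76937269 to 76962201), measured 82.8 and 79.9 in CTRL against 90.3 and 96.6 FPKM in KO. Both KO libraries were above both CTRL libraries, by a small margin. The log2 fold change was 0.20 (standard error 0.0602), with a 95% interval of 0.044 to 0.35, and the adjusted p of 0.0908 (limma) did not pass the threshold. The direction of Max was thus opposite to that of Myc in these values. Its adjusted p ranged from 0.0867 to 0.214 under the other settings that kept all libraries.

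Among the repressors, Mxd3 differed most. Mxd3, which is known to be expressed during S phase of dividing cells (chromosome 13, 55325168 to 55329823), measured 7.13 and 6.36 in CTRL against 13.3 and 13.9 FPKM in KO. The genotypes were far apart compared with the spread within each. The mean rose from 6.74 ± 0.55 to 13.6 ± 0.435 FPKM (SD, n = 2), a ratio of 2.02. The log2 difference was 0.92 (standard error 0.0836, adjusted p = 0.0299, limma). With any 1 library left out it was 0.846 to 0.991, with an adjusted p of 0.0888 to 0.14. Its last exon shares 105 bases with Prelid1 on the other strand. Prelid1 measured 184.5 and 190.7 in CTRL against 253.4 and 272.1 FPKM in KO, with a log2 fold change of 0.48 (adjusted p = 0.0346, limma). The sources used here do not say how strand or shared exon bases were treated in counting. The overlap could thus affect the value of Mxd3 in either direction, and this was not tested.

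Mxd1, a repressor that is typically induced as cells stop dividing and differentiate (chromosome 6, 86647042 to 86669161), measured 23.0 and 26.6 in CTRL against 35.3 and 32.8 FPKM in KO. All KO values were above all CTRL values. The mean rose from 24.8 ± 2.5 to 34.1 ± 1.8 FPKM (SD, n = 2), a ratio of 1.37. The log2 difference was 0.45 (standard error 0.0892, adjusted p = 0.0462, limma). The call was close to the threshold and was lost without the variance trend (adjusted p = 0.0638) and under quantile normalization (0.0513), as well as with any 1 library left out (0.118 to 0.158). No other annotated exon overlapped those of Mxd1.

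Mxd4, Mxi1 and Mnt gave smaller differences. Mxd4, the repressor with the highest FPKM (chromosome 5, 34173883 to 34187720), measured 72.8 and 85.1 in CTRL against 81.0 and 80.1 FPKM in KO. The KO values of Mxd4 both lay between its CTRL values. Its log2 fold change was 0.032, with a 95% interval of -0.19 to 0.25, and changed sign under quantile normalization and without CTRL 1. Mxi1 (chromosome 19, 53310518 to 53375810) measured 6.67 and 6.35 in CTRL against 7.34 and 7.31 FPKM in KO, with a log2 fold change of 0.15 and an interval of -0.046 to 0.34. Mnt, a broadly expressed repressor (chromosome 11, 74830920 to 74845725), measured 15.1 and 17.1 in CTRL against 21.2 and 17.2 FPKM in KO. KO 2 was nearly level with CTRL 2, and the log2 fold change of Mnt, 0.24 with an interval of -0.074 to 0.55, was 0.38 without KO 2 and 0.091 without KO 1. Exons of Mxd4 and Mxi1 share 514 and 194 bases with Gm42846 and Gm10197 on the other strand, which were not among the genes of the table. Adjusted p was 0.823 for Mxd4, 0.231 for Mxi1 and 0.233 for Mnt (limma).

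Mlx, the dimer partner of the parallel branch (chromosome 11, 101087277 to 101092207), measured 33.5 and 31.8 in CTRL against 31.2 and 34.7 FPKM in KO. Both CTRL values lay between the KO values. The log2 fold change was 0.012, the 95% interval was -0.18 to 0.20 and the adjusted p was 0.925 (limma). The sign of this value changed with the scaling, under same-sum scaling and under quantile normalization. Mlx shares 385 exon bases with Psmc3ip on the other strand, which was at most 4.178 FPKM in any library.

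The relatives of the network outside the 10 genes were read from a list of 3. Mga, a large MAX partner with a T-box that works in a Polycomb complex (chromosome 2, 119897228 to 119969581), measured 10.4 and 10.3 in CTRL against 6.87 and 7.06 FPKM in KO. It fell by 0.51 on the log2 scale (standard error 0.0704, adjusted p = 0.0351, limma), and its replicates differed little within a genotype. With any 1 library left out its adjusted p was 0.104 to 0.14. Mlxip, which encodes MondoA, measured 24.1 and 23.7 in CTRL against 20.4 and 19.2 FPKM in KO (a difference of -0.26 on the log2 scale, adjusted p = 0.0611, limma), and passed with the mean FPKM above 5 as filter (0.0488) and with limma-voom on recovered reads (0.0331). Mlxipl was at most 0.124 FPKM in any library and was not tested.

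**Figure D2:**
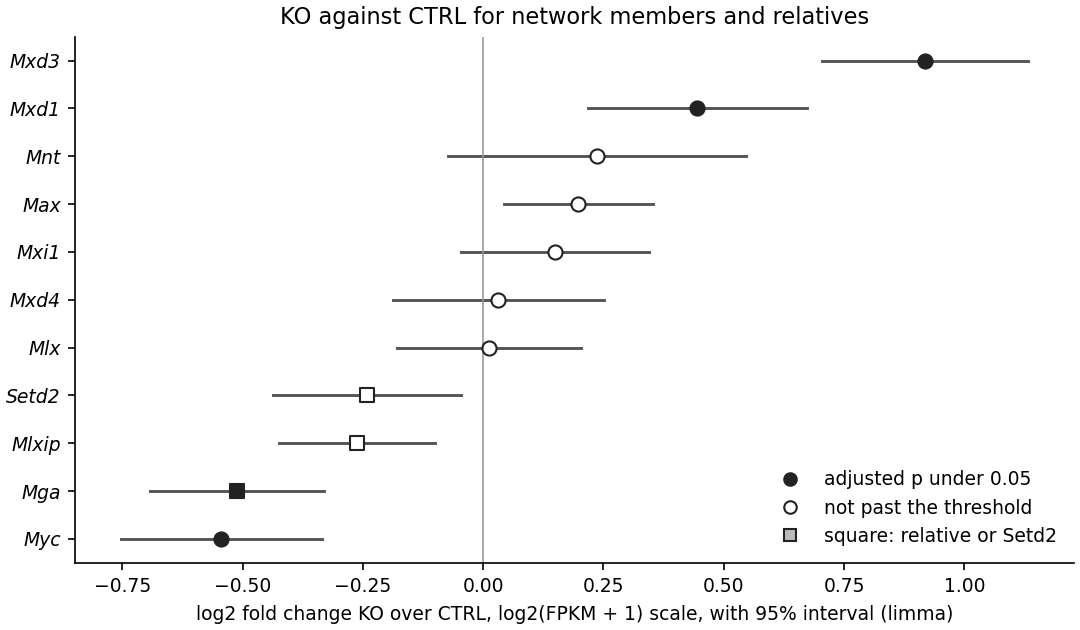
Log2 fold change of KO over CTRL on the log2(FPKM + 1) scale with 95% intervals from limma, for the 8 tested members (circles) and for Mga, Mlxip and Setd2 (squares); filled symbols passed an adjusted p under 0.05. Myc (-0.54) and Mga (-0.51) lie lowest and Mxd3 (0.92) and Mxd1 (0.45) highest, while the intervals of Mnt, Mxi1, Mxd4 and Mlx include 0.

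FPKM is scaled by gene length, so the levels of the members were set side by side, but the lengths used were not stated. In GENCODE, exons cover 8483 bases for Mxd4 and 4627 for Mnt. In CTRL at least 2817 and 3476 reads were recovered for Mxd4, and at least 2275 and 2712 for Mnt. Taken with these exon lengths, the recovered reads would place Mnt above Mxd4, against their FPKM. The order, shares and ratios of the members thus depend on the lengths used. In CTRL the order by mean FPKM was Max, Mxd4, Myc, Mlx, Mxd1, Mnt, Mxd3, Mxi1, Mycl and Mycn. Neighbours whose CTRL values overlapped were Max and Mxd4, and Mxd3 and Mxi1. In KO the order was the same except that Mxd1 came before Mlx, and these neighbours overlapped, with 32.8 to 35.3 FPKM for Mxd1 and 31.2 to 34.7 FPKM for Mlx. Mycl and Mycn also overlapped in KO, while Max and Mxd4, and Mxd3 and Mxi1, no longer did.

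The summed FPKM of the 10 members was 306.7 and 318.2 in CTRL and 321.3 and 330.4 in KO. Myc took 21.32% and 20.4% of this sum in CTRL and 12.85% and 14.42% in KO. Mxd3 took 2.33% and 2% in CTRL and 4.15% and 4.22% in KO, and Mxd1 took 7.51% and 8.35% in CTRL and 11% and 9.93% in KO. Max took 26.99% and 25.1% in CTRL and 28.12% and 29.23% in KO. In CTRL 2 Mxd4, at 85.1 FPKM, was above Max, at 79.9 FPKM.

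The FPKM of Myc was 0.79 and 0.813 times that of Max in CTRL 1 and CTRL 2 and 0.457 and 0.493 times in KO 1 and KO 2. Compared with the sum of the repressors Mxd1, Mxd3, Mxd4, Mxi1 and Mnt, Myc was at a ratio of 0.524 and 0.459 in CTRL and of 0.261 and 0.315 in KO. Both ratios were lower in each KO library than in each CTRL library. The summed repressors measured 125 and 141 in CTRL against 158 and 151 FPKM in KO. Max itself stood at 0.435 and 0.387 times its summed partners in CTRL and at 0.453 and 0.486 times in KO. Its FPKM was thus below that of its partners combined in each of the 4 libraries. These ratios describe RNA of the members chosen, rest on the gene lengths behind the FPKM and were not tested.

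**Figure D3:**
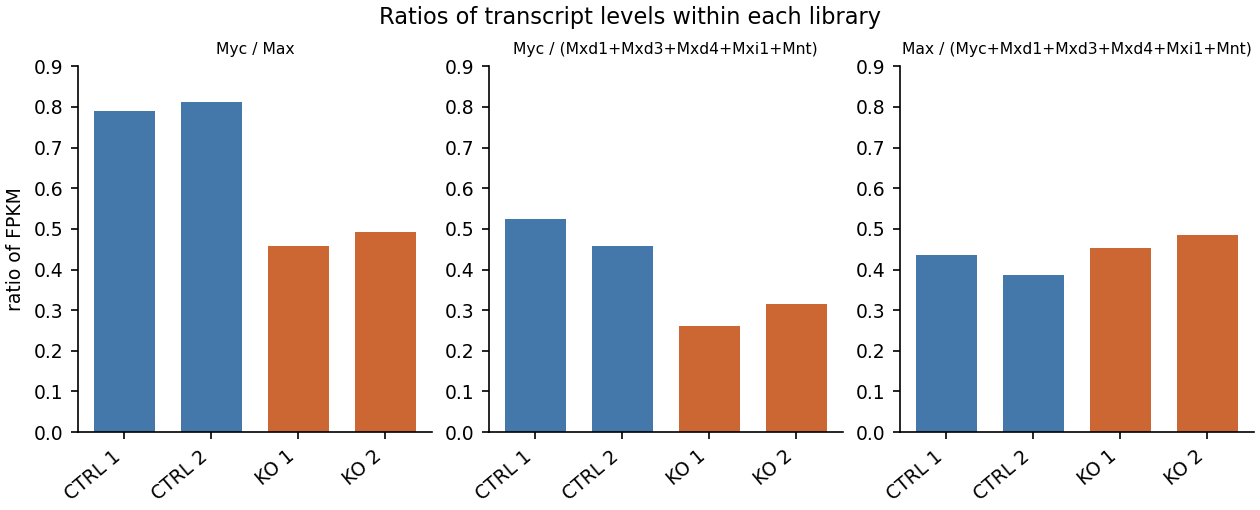
Ratios of FPKM within each library (bars, 1 per library, axes from 0): Myc to Max, Myc to the sum of Mxd1, Mxd3, Mxd4, Mxi1 and Mnt, and Max to the sum of Myc and these 5 repressors. The ratio of Myc to Max was 0.79 and 0.813 in CTRL and 0.457 and 0.493 in KO.

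Because Mxd3 is linked to S phase, 28 genes of cycling cells were read beside it. Of these, 20 rose in KO and 0 fell, where 5.10% of all genes were higher and 4.65% lower. Their median log2 fold change was 0.73, compared with -0.022 over all genes tested. The genotypes did not overlap for any of the 28. Over all genes tested this held for 64.5%. Top2a, a topoisomerase of dividing cells, measured 31.4 and 24.5 in CTRL against 57.6 and 58.5 FPKM in KO (a difference of 1.04 on the log2 scale, adjusted p = 0.0346, limma). Cdk1, the kinase of mitotic entry, rose by 1.06 and Cdc20, an activator of the anaphase-promoting complex, by 1.04 on the log2 scale. Expressed as the log2 value minus the gene's mean, Mxd3 was at -0.39, -0.53, 0.43 and 0.49 in CTRL 1, CTRL 2, KO 1 and KO 2, and the median cycling gene at -0.20, -0.57, 0.39 and 0.36. Mxd1, at -0.32, -0.12, 0.28 and 0.17, had the same signs, and Myc, at 0.28, 0.27, -0.37 and -0.17, the opposite ones, as follows for genes whose genotypes do not overlap in these directions. The part of cycling cells in the difference of Mxd3 was not tested.

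**Figure D4:**
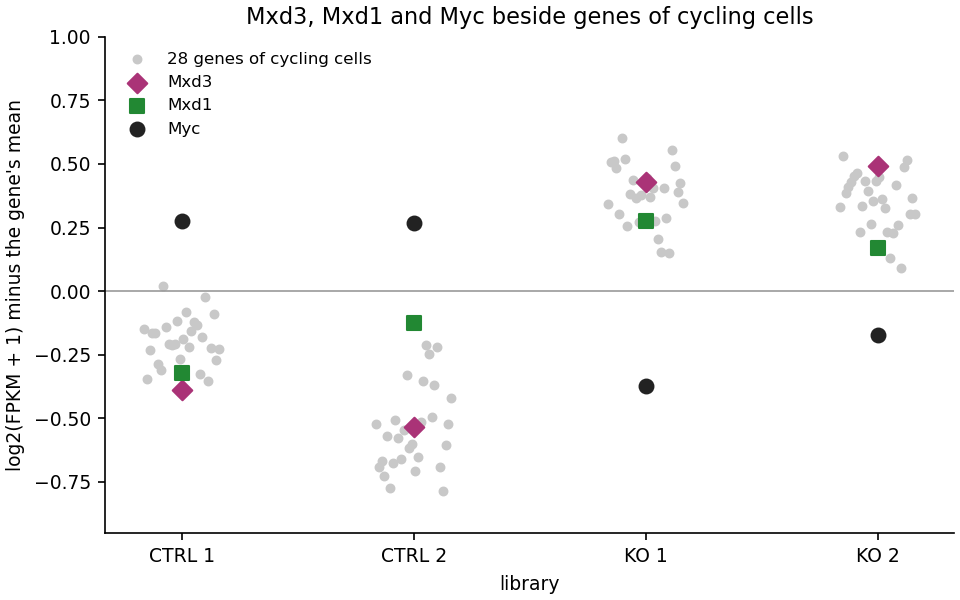
Log2(FPKM + 1) minus the gene's mean over the 4 libraries, for 28 genes of cycling cells (grey), Mxd3, Mxd1 and Myc. Mxd3 and the grey points lie mostly below 0 in CTRL and above 0 in KO, and Myc is at 0.28 and 0.27 in CTRL and at -0.37 and -0.17 in KO.

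The genes through which the network acts were then read as lists. Among 74 known targets that MYC activates, 73 were tested, and 7 rose and 5 fell, while 61 did not pass. Over all genes 5.10% were higher and 4.65% lower. Their median log2 fold change was 0.001, and 50.7% of them were above 0. Among those that fell was Tfap4, which encodes the MYC-induced factor AP4, with 7.10 and 7.64 in CTRL against 4.37 and 4.27 FPKM in KO (a difference of -0.65 on the log2 scale, adjusted p = 0.0346, limma). Ndufaf4, an assembly factor of respiratory complex I, fell by 0.59 and Utp20, a nucleolar factor of 18S rRNA processing, by 0.49 on the log2 scale. Among those that rose were Mcm5 and Mcm4, subunits of the replicative helicase, by 0.84 and 0.58, and Dctpp1, a pyrophosphatase of nucleotide pools, by 0.50. Mcm5 measured 26.9 and 24.9 in CTRL against 46.9 and 47.5 FPKM in KO.

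Of 16 genes that MYC represses, in part through MIZ1 (Zbtb17), 14 were tested, and 1 rose and 0 fell (5.10% and 4.65% of all genes). Their median log2 fold change was 0.30, compared with -0.022 over all genes tested, and was 0.16 with every gene above 0 tested. The gene that rose was Cebpa, a factor of myeloid differentiation, with 11.9 and 10.8 in CTRL against 19.98 and 17.01 FPKM in KO (a difference of 0.66 on the log2 scale, adjusted p = 0.0373, limma). The summed myeloid markers given above overlapped between genotypes, and their part in the value of Cebpa was not tested. Cdkn1a, the cell cycle inhibitor p21, had the largest value of the list, which was noticed after its values were seen. It measured 5.66 and 5.26 in CTRL against 17.5 and 10.1 FPKM in KO, with a log2 fold change of 1.15 and an adjusted p of 0.0509 (limma), and its KO libraries differed widely.

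Co-factors were read next. Of 20 co-factor genes of MYC, made up of co-activators and Zbtb17 (MIZ1), 1 rose and 0 fell (9.75% of all genes in either direction), with a median of -0.003. It was Cdk9, the kinase that releases paused RNA polymerase II, with 35.5 and 33.5 in CTRL against 47.1 and 46.1 FPKM in KO (a difference of 0.42 on the log2 scale, adjusted p = 0.0351, limma). Limma-voom on recovered reads called 4 of these 20 genes, and 16.7% of all genes. Of 19 co-repressor genes of the MXD and MNT proteins, 0 passed with limma or with limma-voom, and 6 had an unadjusted p under 0.05, as had 34.7% of all genes. Their log2 fold changes ranged from -0.22 to 0.24, with a median of -0.037.

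Regulators of MYC protein stability formed a list of 27, of which 26 were tested. Of these, 2 rose (5.10% of all genes) and 1 fell (4.65% of all genes), with a median of -0.015. The list mixes genes that stabilise MYC with genes that target it for turnover, so its counts and median have no direction for MYC. Aurka and Plk1, mitotic kinases that also stabilise MYC proteins, rose by 1.12 and 1.08 on the log2 scale, Aurka from 7.95 and 7.21 FPKM to 19.1 and 16.3 FPKM (adjusted p = 0.0299, limma). Huwe1, a ubiquitin ligase that targets MYC among other proteins, measured 54.8 and 57.8 in CTRL against 45.2 and 46.5 FPKM in KO (a difference of -0.29 on the log2 scale, adjusted p = 0.0458, limma). RNA levels of these regulators do not measure MYC protein, which was not assayed in these libraries.

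Of 30 genes for signals that act upstream of Myc in T cells, 4 rose (5.10% of all genes) and 1 fell (4.65% of all genes). Their median was 0.080, or 0.0446 without KO 1 and 0.0191 under quantile normalization. The list does not separate genes that raise Myc from genes that lower it, so its counts and median have no direction for Myc. Irf4, a factor induced by antigen receptor signals, measured 18.03 and 16.66 in CTRL against 35.66 and 28.03 FPKM in KO (a difference of 0.83 on the log2 scale, adjusted p = 0.0355, limma). E2f1, which drives entry into S phase, rose by 0.76 and Smad3, the transducer of TGF-beta, by 0.31 on the log2 scale. Il7r, the receptor of IL-7, fell by 0.35 on the log2 scale, from 67.1 and 61.6 FPKM to 50.71 and 49.99 FPKM. With all genes above 0 tested, 0 genes of any of these lists passed. Limma-voom called 8 of the 30 upstream genes and 4 of the 14 repressed genes that reached the filter, against 16.7% of all genes. Without the variance trend, 12 cycling genes, 7 targets and 2 upstream genes passed in either direction, against 5.96% of all genes.

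**Figure D5:**
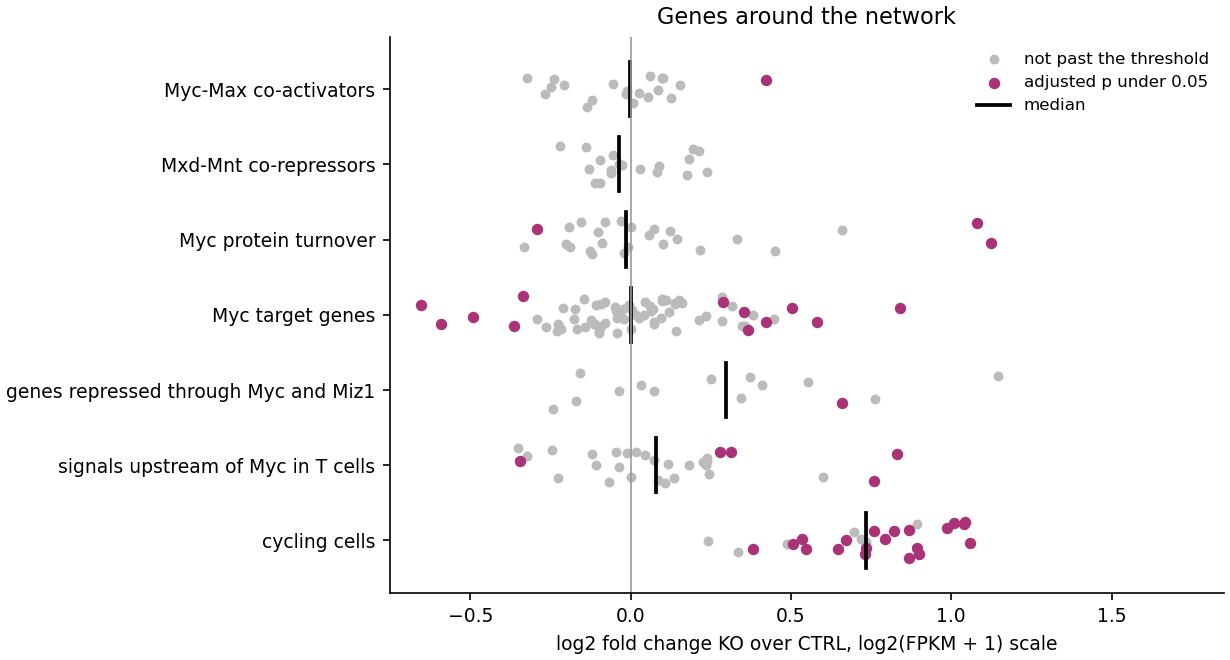
Log2 fold change of KO over CTRL (log2(FPKM + 1) scale) for each tested gene of 7 lists, 1 point per gene; coloured points passed an adjusted p under 0.05 and black lines are medians. Targets of MYC spread to both sides of 0 around a median of 0.001, and the cycling genes have a median of 0.73.

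To find the genes whose pattern was most like that of Myc, log2 values centred on each gene's mean were compared over the 4 libraries among 8401 genes with a mean of at least 5 FPKM. The nearest by Euclidean distance were Kmt2d (0.0307), Zfp955b (0.0369), Atxn3 (0.0384), Atp2b1 (0.0514) and Vamp1 (0.057). Kmt2d, an H3K4 methyltransferase gene, measured 39.4 and 40.3 in CTRL against 25.2 and 29.0 FPKM in KO. Each of the 5 was lower in KO 1 than in KO 2, like Myc, which follows from choosing them by this distance. These distances are a description of 4 libraries with no test.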

How the data were processed

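RNA-seq of splenic Treg cells gave 4 libraries, 2 CTRL and 2 KO. Per the labels, the submitters' processing notes name HISAT2 2.2.1 and featureCounts 2.0.1 with mm10. The deposited values were FPKM, made by the authors. How strand and multi-mapped reads were treated, and which gene lengths and annotation were used, is not given in the sources used here. The study tested counts, but the deposited unit was FPKM. Control columns were named WT and were read as the CTRL libraries of the same number.

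KO was compared with CTRL by limma 3.58.1 in R 4.3.3 (lmFit, eBayes with an intensity trend) on log2(FPKM + 1) over the 11399 genes that reached 1 FPKM in 2 or more libraries, with Benjamini-Hochberg adjustment. Fold changes are on this scale, which understates changes of low genes. Intervals are 95% intervals of the fit. Positions and exon overlaps came from GENCODE vM21 (GRCm38) and promoters from RefSeq (GRCm38.p6). Whole reads were recovered from the steps of the FPKM values for 19886 of 19888 genes above 0 (99.99%, within 0.001 of a whole number). A factor shared by all 4 counts of a gene cannot be seen, so the true numbers may be higher.

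The members and gene lists were chosen with earlier results of these data known, and the lists were written from general knowledge. Named were the members, Setd2, the 3 relatives, at most the 3 highest and 3 lowest genes past the threshold in each list around the network whose genotypes did not overlap, and the 5 genes most like Myc. Genes named outside this rule are Prelid1, Psmc3ip, Gm42846 and Gm10197 for their overlap, cell markers, and those said to have been noticed afterwards. The motifs were chosen after the values were seen.

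Alternatives were a pseudocount of 0.1, other filters, scalings and variance models, a replicate block, limma-voom on recovered reads, and leaving out each library. The fit was tested on simulated data, where it recovered most changed genes and unchanged genes made up a larger share of its calls than the adjusted p of 0.05 allows. Python 3.11.15, numpy 2.4.6, pandas 2.3.3 and matplotlib 3.10.9 were used.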

Additional observations from a re-analysis of the deposited data

How the results depend on the processing

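With all genes above 0 tested, Myc (-0.544, adjusted p = 0.0861), Mxd1 (0.445, 0.102) and Mxd3 (0.919, 0.086) kept their fold changes but lost the threshold, so 0 members and 0 genes passed in either direction. That setting adds weakly expressed genes to the fit. Mxd1 was also lost under quantile normalization (0.436) and without the variance trend (0.445), which left 1 higher member, and without the trend 315 genes were higher. Limma-voom on recovered reads put 1038 genes lower. The cause of these shifts was not tested.

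Without 1 library at a time, Myc ranged from -0.645 to -0.443, Mxd1 from 0.346 to 0.544 and Mxd3 from 0.846 to 0.991, with adjusted p from 0.0888 to 0.158. Then 0 to 0 members were higher, 0 to 0 were lower, and 0 to 1 genes passed in each direction. These fits assume that the lone library of a genotype varies like the others. Mxd4 ranged from -0.0792 to 0.143 and Mlx from -0.0617 to 0.0856. Mxd4 reversed under quantile normalization (-0.0562), as did Mlx (-0.00695), which also reversed under same-sum scaling (-0.00188).

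The labels tie no replicate number to a litter or day, so a shared batch cannot be read from them. The myeloid and B cell sums given above were higher in the first library of each genotype. The deviations of same-numbered libraries were correlated across genes at 0.342 (Pearson) and 0.0553 (Spearman). With the replicate block, 968 genes were higher and 805 lower, Myc had an adjusted p of 0.0132 (limma), and Mxd1, Mxd3 and Myc passed. So did 6 of the 14 tested genes repressed by MYC, against 15.6% of all genes. With 2 libraries per genotype, only differences well above the spread within a genotype could be called.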

Other observations

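Some neighbours of the network were read after the values had been seen. Pvt1, the noncoding gene next to Myc (chromosome 15, 62037986 to 62378096), measured 5.33 and 5.26 in CTRL against 4.34 and 4.47 FPKM in KO. Both KO libraries were below both CTRL libraries, as for Myc, with a log2 fold change of -0.22, a 95% interval of -0.43 to -0.0094 and an adjusted p of 0.132 (limma). Mycbp2, a large ubiquitin ligase found as a MYC-binding protein, fell from 29.3 and 31.8 FPKM to 22.8 and 21.7 FPKM (log2 fold change -0.44, adjusted p = 0.0375, limma). Mycbp measured 4.58 and 3.60 in CTRL against 3.34 and 2.96 FPKM in KO (adjusted p = 0.192, limma).

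Other factors of the same protein class that bind E-boxes had small positive differences, and none passed the threshold. Tfeb, a regulator of lysosome genes, measured 8.62 and 10.2 in CTRL against 12.3 and 12.6 FPKM in KO (a difference of 0.37 on the log2 scale, adjusted p = 0.0701, limma). Usf1, Usf2 and Tfe3 had log2 fold changes of 0.19, 0.15 and 0.14 (adjusted p = 0.123, 0.21 and 0.227, limma). Mitf and Tfec were below the filter, at most 0.882 FPKM in any library.

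Odc1, the rate-limiting enzyme of polyamine synthesis and a classic MYC target, was noticed after its values were seen. It differed widely between the KO libraries, at 252.2 FPKM in KO 1 and 110.9 FPKM in KO 2, on either side of 180.8 and 176.4 FPKM in CTRL.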
